A study of Mus musculus with 8 samples.

Results

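Vehicle-treated, activated CD8 T cells are described here by their own transcript levels, with no treatment contrast. They were chosen by label: the 2 arrays labelled as treated with DMSO, the solvent control, on day 2, out of 8 arrays in all. RNA came from CD8 T cells of female mice. Naive cells had been stimulated in vitro and cultured for 48 h with DMSO or with 1 of 3 agonists, directed at PPARα, PPARβ and PPARγ, at 2 arrays per treatment. No source used here gave the stimulus, the compounds, their doses, or the age and strain of the mice. Titles carry a prefix that is shared by 1 array of every treatment, so that the 8 arrays fall into 2 sets of 4, here called set 1 and set 2. What the prefix marks was not given, and each set holds 1 DMSO array, so that set and array cannot be told apart within DMSO alone.

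A naive CD8 T cell is a small resting lymphocyte that recirculates through lymph nodes, to which CCR7 helps to guide it. Signals through its T cell receptor and CD28 switch on MYC and mTOR, and the cell grows, takes up glucose and amino acids and divides rapidly. Over days it gains the tools of a cytotoxic cell, namely granzymes, perforin, Fas ligand and interferon gamma, under transcription factors such as RUNX3, T-bet, EOMES, BLIMP-1 and IRF4.

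Levels are log2 RMA values, which are background-corrected, equalised between arrays and summarised over the probes of a transcript cluster. Each cluster has its own probes, so the order of genes is an order of array signal and not of transcript number. Levels were therefore read in 3 broad classes over the 21160 genes with a cluster of their own, whose DMSO means ran from 2.28 to 19.07 around a median of 5.67. High means the top 10 percent, a DMSO mean above 12.48, and near background means at or below 5.31, the 95th percentile of 1450 olfactory, vomeronasal and taste receptor genes, which had a median of 3.96. By these limits 2116 genes were high, 9310 were middle and 9734 (46.0 percent) were near background. The class was the same in both DMSO arrays for all but 1090 genes (5.15 percent), and 0 genes were high in one array and near background in the other. The median SD between both arrays was 0.175.

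Lists of genes for the lineage, effector, growth, metabolic and receptor programmes held 362 genes with a cluster of their own. Of these, 158 (43.6 percent) were high, against 10 percent of all genes, 162 were middle and 42 (11.6 percent) were near background, against 46 percent. The lists were chosen with earlier results of these data known, so these shares describe the lists and are not a test. General growth and metabolic genes were among the high ones, with 26 from the cell cycle list and 17 from the glycolysis list. Markers of other cell types held 64 genes, of which 0 were high, 14 were middle and 50 (78.1 percent) were near background. The limits run through a continuum: the integrin gene Itgae at 12.49 stood just inside the high class and the pro-death gene Bax at 12.47 just outside, and the inhibitory receptor gene Havcr2 at 5.32 stood just above background and the dendritic cell factor gene Batf3 at 5.28 just below.

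**Figure D1:**
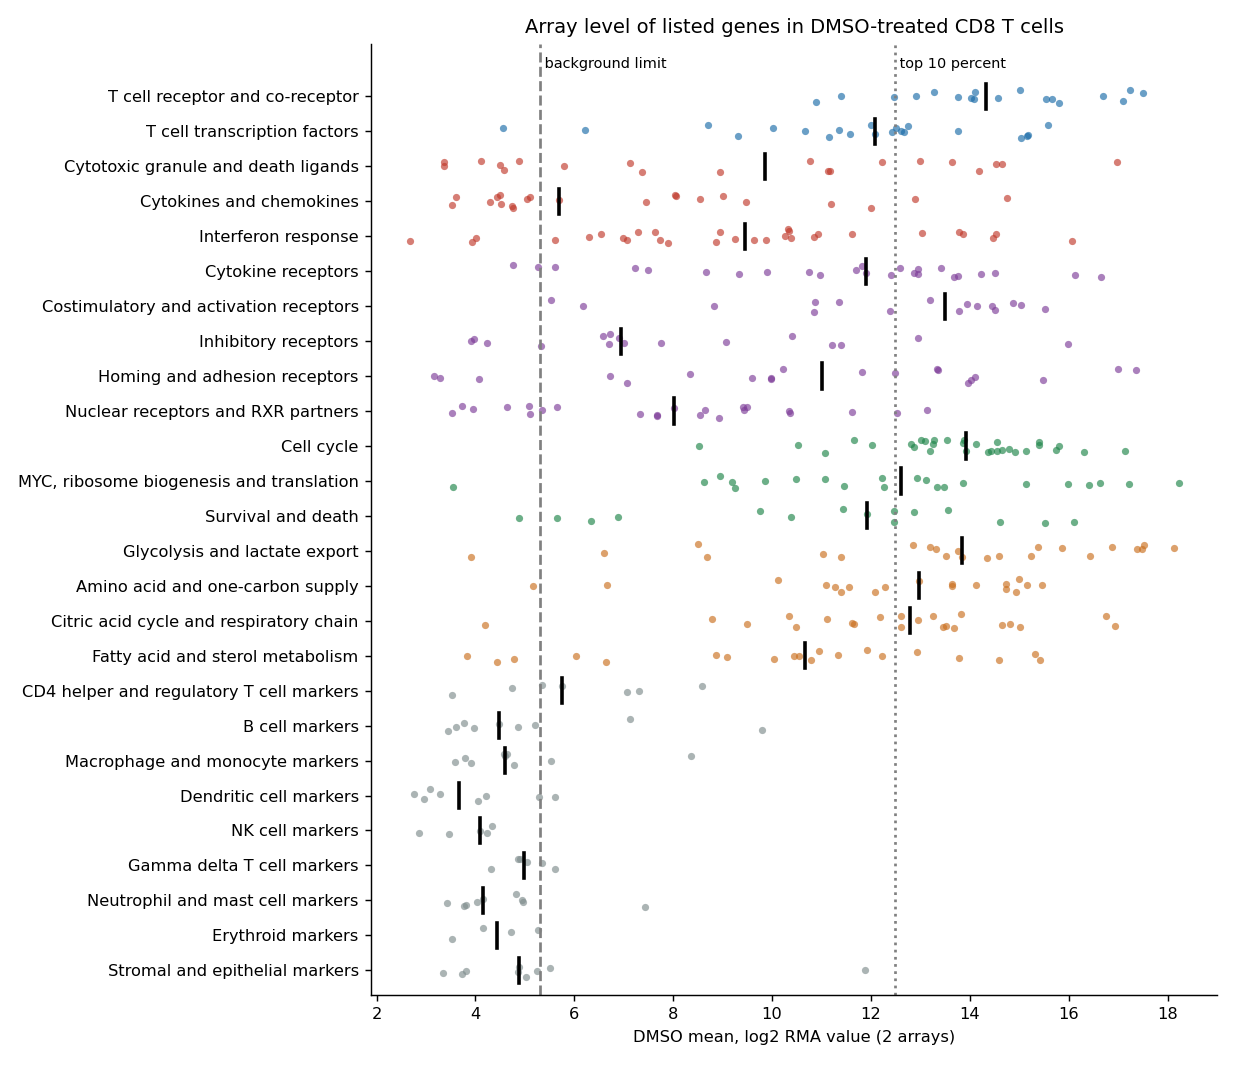
DMSO mean of the log2 RMA value over 2 arrays (horizontal axis) for every listed gene with a cluster of its own, 1 point per gene and 1 row per list, with black bars at list medians. The dashed line is the background limit of 5.31 and the dotted line the top 10 percent at 12.48. T cell receptor, cell cycle and glycolysis lists have medians of 14.33, 13.93 and 13.85, and all lists of other cell types have medians far to the left of the dotted line.

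The highest array signals came from genes of general cell machinery. Hspa8, a constitutive heat shock chaperone, ranked first with 19.09 and 19.05 in the DMSO arrays of set 1 and set 2. It was followed by ND1 of the mitochondrial genome, the translation factor gene Eef1a1, the MHC class I light chain gene B2m, Actb, COX1, the ribosomal protein genes Rps23 and Rps6, the lymphocyte surface gene Ly6e and the predicted gene Gm11032. All of them differed by at most 0.21 between both arrays.

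The defining markers of the labelled cell type were high. Cd8a (chromosome 6, 71373427 to 71379171 on build mm10), a chain of the CD8 co-receptor, read 16.69 and 16.71, a mean of 16.70 ± 0.01 (SD, n = 2), rank 128 of 21160. Cd8b1, the other chain, read 17.23 and 17.26. In the 6 agonist arrays Cd8a lay between 16.48 and 16.73, so all 8 arrays sat within a narrow band. Of the 18 T cell receptor and co-receptor genes with a cluster of their own, 15 were high, 3 were middle and 0 were near background.

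The receptor complex was high throughout. Cd3e read 17.07 and 17.11, Cd3d 15.00 and 15.02, and Cd3g 15.45 and 15.63, all signalling subunits of CD3, and Cd247, the zeta chain, read 13.57 and 13.95. All 4 subunits were high in both arrays. The cluster of the proximal kinase gene Lck is shared with a microRNA gene and read 14.81 and 15.03. Its partner Zap70 was middle at 11.49 and 11.29, as were Fyn and the adaptor gene Trat1, while the adaptor genes Lat and Sh2d2a were high at DMSO means of 14.09 and 14.56.

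Among 21 transcription factor genes, 9 were high, 11 middle and 1 near background. Tcf7 and Lef1, partner factors of naive and memory cells, were high at 15.19 and 15.13, and at 15.13 and 15.22. Foxo1, which maintains expression of homing receptors, was just high at 12.42 and 12.59, and Klf2, which drives S1pr1, was middle at 11.29 and 11.84. Other factors known from naive or memory cells were middle too, with means of 12.42 for Bach2, 12 for Bcl11b and 9.31 for Id3. Ets1, Stat4 and Runx3, the last of these the factor that silences Cd4 and drives cytotoxic genes, had DMSO means of 15.59, 15.03 and 13.75.

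Effector factors were mostly in the middle class. Tbx21, which encodes T-bet, read 8.51 and 8.89, and Eomes, its relative, read 10.98 and 10.34. Batf, an AP-1 family factor induced by receptor signals, read 11.48 and 11.22. Irf4, whose induction scales with receptor signal strength, read 11.84 in set 1 and 10.48 in set 2, the widest gap between both arrays in this list. Prdm1, the gene of BLIMP-1, a factor of terminal effector cells, was the single member near background at 4.16 and 4.95, and Bcl6, its antagonist, was low in the middle class at 6.12 and 6.33.

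**Figure D2:**
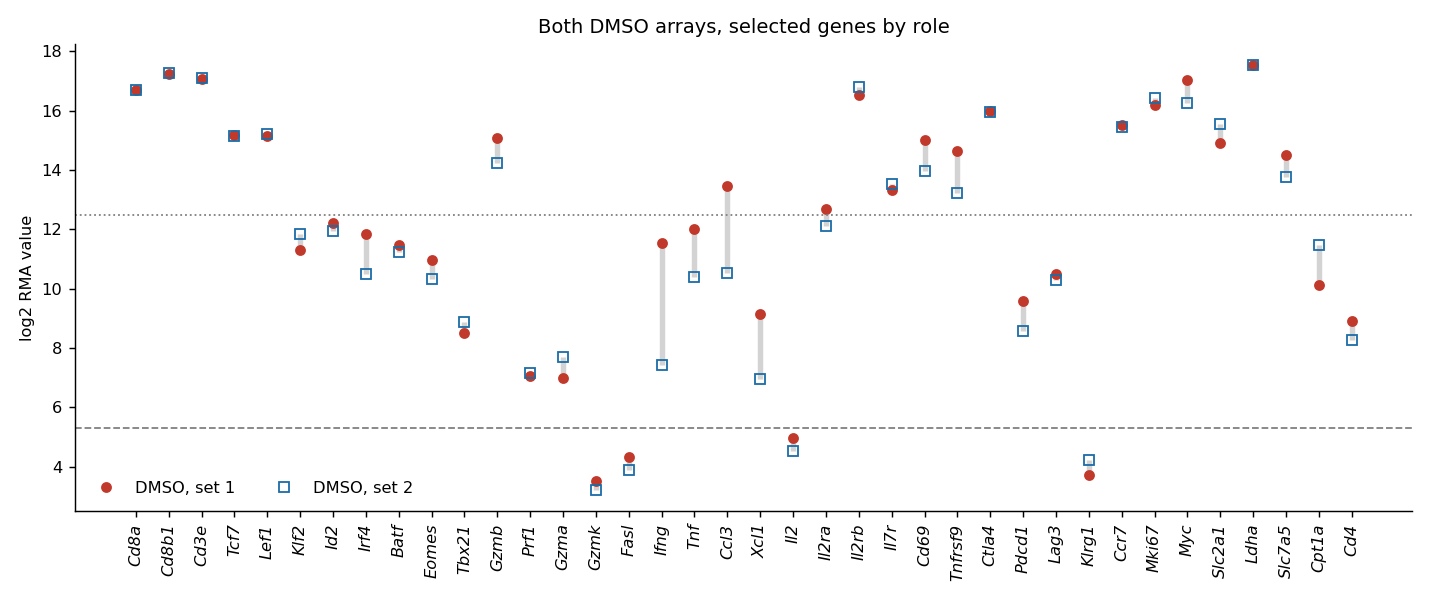
Log2 RMA value (vertical axis) of selected genes in the DMSO array of set 1 (filled circles) and of set 2 (open squares), joined by grey bars and ordered by role; the dotted and dashed lines are the limits of 12.48 and 5.31. Cd8a, Tcf7, Ctla4 and Ldha nearly coincide, and Ifng, at 11.54 and 7.42, is the farthest apart.

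The killing machinery was uneven. Gzmb (chromosome 14, 56258836 to 56262260), the gene of the protease granzyme B, was high at 15.08 and 14.24, a mean of 14.66 ± 0.60 (SD, n = 2). Prf1, which encodes the pore-forming perforin that lets granzymes into a target cell, was low in the middle class at 7.06 and 7.17. Gzma read 7.0 and 7.71 and Gzmm 5.62 and 5.98, both middle. The other single-gene granzyme clusters were near background in both arrays, with DMSO means of 4.87 for Gzmc, 4.49 for Gzmf, 4.58 for Gzmg, 3.37 for Gzmk and 3.36 for Gzmn, and the cluster shared by Gzmd and Gzme had a mean of 5.96. Fasl, the death ligand gene, was near background at 4.33 and 3.89, whereas Tnfsf10, which encodes TRAIL, was middle at 10.59 and 10.95.

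Genes that build and guard the granule were higher. Srgn, the proteoglycan core that binds granzymes, read 17.16 and 16.78. Nkg7, a granule membrane protein gene, read 13.89 and 14.47, the cathepsin genes Ctsc and Ctsw had means of 14.52 and 13.63, and Rab27a, which docks granules for release, read 12.62 and 13.39. Serpinb9, an inhibitor of granzyme B, was middle at 11.65 and 10.69. In all, 6 of 20 members were high, 8 middle and 6 near background, with a median of 9.86.

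Promoter sequence is shown for granule genes of all 3 classes, since RUNX and AP-1 factors are known regulators of this family. RefSeq windows (GRCm38.p6, 250 bases before to 50 after each gene's start) matched 323 of the 421 listed genes with a cluster of their own. The RUNX core TGTGGT was searched on both strands, so that it also appears as ACCACA, and the AP-1 core was TGANTCA. Capitals mark RUNX matches, and for Gzmb also the AP-1 match. Stretches run 5′ to 3′ on the gene's strand and lie at chr14:56262346-56262445 (minus strand) for Gzmb, chr7:43437008-43437107 (plus) for Nkg7, chr10:61297659-61297758 (plus) for Prf1, chr13:113100979-113101078 (minus) for Gzma and chr14:56234746-56234845 (minus) for Gzmc.
Gzmb: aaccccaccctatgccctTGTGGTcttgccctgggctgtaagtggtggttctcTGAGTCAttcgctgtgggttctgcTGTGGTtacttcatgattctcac
Nkg7: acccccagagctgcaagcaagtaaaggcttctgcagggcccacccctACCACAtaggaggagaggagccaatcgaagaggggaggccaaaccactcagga
Prf1: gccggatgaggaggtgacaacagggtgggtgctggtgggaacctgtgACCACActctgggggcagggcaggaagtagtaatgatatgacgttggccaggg
Gzma: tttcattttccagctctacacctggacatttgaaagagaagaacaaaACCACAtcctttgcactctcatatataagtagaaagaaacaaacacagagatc
Gzmc: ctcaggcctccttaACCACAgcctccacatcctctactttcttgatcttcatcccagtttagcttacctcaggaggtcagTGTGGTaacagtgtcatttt

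The RUNX core lay in the windows of 12 of 18 granule and death ligand genes (66.7 percent), against 2748 of 16249 array genes with a window (16.9 percent). Gzmb, Gzmc, Gzmf and Gzmg, which lie close together on chromosome 14, are among these 12. The core was also common in other lists, with 7 of 13 inhibitory receptor genes, 3 of 4 CD4 T cell markers and 4 of 4 natural killer cell markers. Within the granule list, matches were found in every class. Gzmb, high, and Gzmc, near background, each held the core in 2 places, while the windows of Ctsc, high, and Gzmk and Fasl, near background, held it in 0. The AP-1 core lay in the window of Gzmb alone among these 18 (5.56 percent), against 8.27 percent of array genes. Such a match is a description of letters, not evidence of a bound site.

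Secreted effectors formed the lowest of the effector lists: 2 of 21 cytokine and chemokine genes were high, 9 middle and 10 near background, and the median of 5.69 was close to that of all genes. The high members were the lymphotoxin genes, with Ltb at 14.71 and 14.79 and Lta at 13.12 and 12.68. Il2, the T cell growth factor gene, was near background at 4.97 and 4.53, as were Csf2, Il3, Il4, Il5, Il10, Il13, Il17a and Il21. Tnf was middle at a mean of 11.19, and so was Ccl5, a chemokine gene of memory and late effector cells, at 8.03.

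Ifng (chromosome 10, 118441047 to 118445892), the gene of interferon gamma, was the listed gene on which both DMSO arrays disagreed most, at 11.54 and 7.42. Ccl3 (chromosome 11, 83647843 to 83649378), a chemokine gene switched on by receptor signals, read 13.47 and 10.52, high in one array and middle in the other. Xcl1, which encodes a chemokine that attracts cross-presenting dendritic cells, read 9.16 and 6.97. In each case the DMSO array of set 1 was the higher.

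Interferon response genes were spread over all classes, with 6 of 30 high, 21 middle and 3 near background. Irf1, a transcription factor gene induced by interferon gamma, read 14.40 and 14.53. The GTPase genes Gbp2, Igtp and Irgm1, targets of interferon gamma that act against intracellular pathogens, were high, with means of 14.52, 13.86 and 13.79. Other GTPase genes of the list, Gbp3 and Iigp1, were middle at 10.85 and 10.34. Several genes known for the response to type I interferon were lower. Isg15, a ubiquitin-like modifier, read 8.0 and 6.12, and Ifit3, which acts against viral RNA, 10.07 and 7.80. Mx1, an antiviral GTPase gene, read 8.43 and 6.16. The level was not uniform, since Bst2 of the same list was high at a mean of 13.03 and Ddx58 middle at 11.62. Oasl1, Oas2 and Rsad2 were near background at means of 2.67, 3.92 and 4.01.

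The interferon response element was searched in the same windows as GAAA, any 2 bases and GAAA again, on both strands, so that it also appears as TTTC, any 2 bases and TTTC. It lay in the windows of 15 of 23 genes (65.2 percent), against 626 of 16249 array genes (3.85 percent). Of the granule and death ligand genes 4 of 18 (22.2 percent) held it. In the interferon response list, windows of Irf1, high, Irf7, middle, and Oasl1, near background, held it in 0 places. That of Rsad2, near background, held it in 1. Capitals mark matches of the element, and these overlap one another in Gbp3 and Isg15. The stretches lie at chr11:58199477-58199576 (plus strand) for Igtp, chr3:142559957-142560056 (plus) for Gbp3, chr4:156200836-156200935 (minus) for Isg15, chr19:34583345-34583444 (plus) for Ifit3 and chr5:92349040-92349139 (minus) for Cxcl10, and they are shown as examples of GTPase, type I interferon and chemokine genes of this list.
Igtp: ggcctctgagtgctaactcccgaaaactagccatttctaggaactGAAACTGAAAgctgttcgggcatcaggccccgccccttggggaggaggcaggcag
Gbp3: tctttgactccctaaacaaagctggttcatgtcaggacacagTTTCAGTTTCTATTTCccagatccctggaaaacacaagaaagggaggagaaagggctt
Isg15: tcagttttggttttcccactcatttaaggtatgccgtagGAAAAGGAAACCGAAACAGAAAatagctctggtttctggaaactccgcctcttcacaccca
Ifit3: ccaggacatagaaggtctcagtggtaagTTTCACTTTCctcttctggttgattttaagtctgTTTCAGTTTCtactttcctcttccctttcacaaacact
Cxcl10: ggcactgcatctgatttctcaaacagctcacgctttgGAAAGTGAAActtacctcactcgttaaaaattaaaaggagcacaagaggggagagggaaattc

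The chains shared by several growth cytokine receptors were high. Il2rb and Il2rg, the signalling chains for IL-2 and IL-15, read 16.54 and 16.79, and 16.20 and 16.04. Il2ra, the inducible chain that gives high affinity for IL-2, straddled the limit at 12.69 and 12.10, with a mean in the middle class. Il15ra and Il21r, the specific chains for IL-15 and IL-21, were middle at means of 7.22 and 11.90. Il7r, a receptor of naive and memory cells that usually falls on activation, was high at 13.31 and 13.53. Of 25 cytokine receptor genes, 11 were high, 12 middle and 2 near background, the lowest being Il1r1 at 4.76 and Il9r at 5.26.

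Among costimulatory and activation receptor genes, 9 of 16 were high, 7 middle and 0 near background. Cd28 read 14.81 and 14.93 and Icos 15.35 and 14.73. The inducible TNF receptor family members Tnfrsf9 (4-1BB) and Tnfrsf4 (OX40) read 14.64 and 13.24, and 14.13 and 12.24. Cd69, an early activation marker that retains cells in lymphoid tissue, read 15.01 and 13.98. All 3 of the last were higher in the set 1 array.

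Inhibitory receptors were lower as a list, with 2 of 16 high, 11 middle and 3 near background. Ctla4, which competes with CD28 for its ligands, was high at 16.00 and 15.95, and Klrd1, the CD94 chain of a receptor for MHC class I, was high at 12.55 and 13.37. Pdcd1, the gene of PD-1, read 9.57 and 8.56 and Lag3 10.51 and 10.29, both middle. Havcr2, which encodes TIM-3, straddled the background limit at 5.10 and 5.54, and Klrg1, a marker of terminal effector cells, was near background at 3.71 and 4.23.

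Receptor genes for lymph node traffic were high. Ccr7 read 15.50 and 15.44, and S1pr1, the receptor that lets cells leave lymph nodes, read 13.13 and 13.55. Genes for entry into inflamed tissue differed in class. Selplg, which encodes the ligand of P-selectin, and the integrin genes Itga4 and Itgb1 were high at means of 17.0, 14.03 and 13.36. Cxcr3 was middle at 11.31 and 12.32, and Ccr2 and Cx3cr1 were near background at means of 3.28 and 4.08. Of 20 genes, 9 were high, 8 middle and 3 near background. These high homing genes stood beside high division genes in the same arrays. Whether they came from the same cells cannot be told from bulk RNA, and fewer cells of a type cannot be told apart from less RNA per cell.

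Of the receptors targeted in the other groups, none was high in DMSO cells. PPARs are fatty acid-binding nuclear receptors that pair with RXR. Ppara (chromosome 15, 85734983 to 85806851) was near background at 5.16 and 5.04, and Pparg (chromosome 6, 115361221 to 115490401) at 3.64 and 3.80. The gene of PPARβ, Ppard, shares its cluster with 1810013A23Rik, and that cluster was middle at 9.32 and 9.91, with no way to divide the signal. Among the partners Rxrb was middle at 9.38 and 9.46, Rxra middle at 9.28 and 8.02, and Rxrg near background at 4.06 and 3.82. Among 23 nuclear receptor genes 2 were high: Nr4a3, induced by receptor signals, at 13.98 and 12.28, and Nr1h2, which encodes the sterol sensor LXRβ, at 12.53 and 12.51.

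Genes of cell division were high in the main. Of 31 cell cycle genes, 26 were high, 5 middle and 0 near background, with a median of 13.93. Mki67, the proliferation marker, read 16.19 and 16.44, Pcna, the replication clamp gene, 17.11 and 17.14, and Rrm2, which supplies deoxynucleotides, 15.30 and 15.47. The replicative helicase genes Mcm2 to Mcm6 had means between 13.87 and 15.14. The mitotic genes Plk1 and Ccnb1 read 15.27 and 15.52, and 13.54 and 13.54. The inhibitor genes Cdkn1a and Cdkn1b were also present, at means of 11.07 and 13.19.

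Growth genes followed. Myc (chromosome 15, 61985341 to 61990374), the master factor of activation-induced growth, read 17.03 and 16.26. Its dimer partner Max read 13.15 and 13.09, and its relative Mycn was near background at 3.34 and 3.75. Npm1 and Ncl, abundant nucleolar proteins of ribosome assembly, had means of 17.21 and 15.98. Of 22 genes of this list, 11 were high, 10 middle and 1 near background. The E-box CACGTG, the core that MYC and MAX bind, lay in the windows of 3 of 17 genes (17.6 percent), against 9.18 percent of array genes. This share did not set the list apart. Programme lists ranged from 0 percent, as for amino acid and one-carbon genes, to 22.7 percent for glycolysis and 23.1 percent for survival genes.

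Among survival genes, Bcl2 and Mcl1, which restrain mitochondrial death, read 15.44 and 15.60, and 14.59 and 14.62. The pro-death gene Bcl2l11, which encodes BIM, was high at 13.06 and 12.71, and Bbc3, which encodes PUMA, was near background at 4.71 and 5.02. In this list 5 of 15 genes were high, 9 middle and 1 near background.

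Most glycolysis genes were high. Of 23 genes, 17 were high, 5 middle and 1 near background, with a median of 13.85. Ldha, which turns pyruvate into lactate, read 17.53 and 17.53, Gapdh 18.11 and 18.12, and Pkm 17.42 and 17.56. The main glucose transporter gene of T cells, Slc2a1, read 14.90 and 15.55. Of the hexokinase genes, Hk1 was high at 13.43 and 14.10 and Hk2 middle at 11.27 and 11.51. Of the enolase genes, Eno2, the neuronal form, was near background at 3.78 and 4.03, and the cluster of Eno1 and Eno1b was high at 17.89 and 17.99.

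Supply of amino acids and one-carbon units was high in 10 of 19 genes, middle in 8 and near background in 1. Both chains of the large neutral amino acid transporter were high, with Slc7a5 at 14.50 and 13.76 and Slc3a2 at 15.61 and 15.30. Slc1a5, a glutamine transporter gene, read 13.94 and 13.32, and Shmt2, the mitochondrial serine hydroxymethyltransferase gene, 15.13 and 14.35. The cystine transporter gene Slc7a11 was the member near background, at 5.22 and 5.11.

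Mitochondrial genes were also high in the main: 13 of 22 were high, 8 middle and 1 near background. The ATP synthase genes Atp5b and Atp5a1 read 16.95 and 16.91, and 16.75 and 16.78. Ppargc1a, a coactivator of mitochondrial biogenesis known from muscle and brown fat, was near background at 4.44 and 3.97, and its relative Ppargc1b was middle at 9.11 and 8.44.

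Lipid genes were mixed, with 5 of 20 high, 12 middle and 3 near background. The sterol synthesis gene Hmgcs1 read 15.70 and 15.12, and Srebf2, the factor that drives it, 15.40 and 15.24. Cpt1a, which admits long-chain fatty acids to mitochondria, was middle at 10.11 and 11.46, and the muscle form Cpt1b was near background at 4.80 and 4.74. Cd36 and Fabp4, fatty acid uptake and binding genes of macrophages and fat cells that are classical PPARγ targets, were near background at means of 3.83 and 4.44.

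Most markers of other cells were near background, with the CD4 T cell list as the exception. Of its 7 genes with a cluster of their own, 5 were middle and 2 near background. Cd4 was middle at 8.90 and 8.27, Cxcr5, Ccr6 and Zbtb7b were middle at means of 7.31, 7.06 and 5.75, and the cluster of Foxp3, the regulatory T cell factor gene, shared with Ppp1r3fos, read 8.26 and 8.27. Of 9 B cell markers 7 were near background, among them Ms4a1 at 3.70 and 3.53 and Cd79a at 3.92 and 3.60, while Cd79b read 9.94 and 9.66 and the MHC class II gene H2-Ab1 6.41 and 7.86. All 5 natural killer cell genes and all 4 erythroid genes with a cluster of their own were near background. Of 9 macrophage genes 7 were near background, with Cd68, a lysosomal gene, middle at 8.56 and 8.14 and Fcgr1 at a mean of 5.52. Kit, a mast cell marker, Siglech, of plasmacytoid dendritic cells, Il23r, of gamma delta T cells, and Krt8, of epithelia, were also middle, with means of 7.43, 5.61, 5.60 and 5.50. Pecam1, an endothelial marker that naive T cells also express, was the highest of these markers at 11.83 and 11.91.

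With 1 DMSO array per set, a difference between both arrays has no error of its own. The 6 agonist arrays carry the same split, so the set difference was fitted over all 8 arrays with treatment group as a term (limma, two-sided, Benjamini-Hochberg adjustment over 12696 genes with a mean of at least 4.89). No label ties the arrays of a set to separate mice or cultures. The SEs and p-values of this contrast therefore reflect only spread among arrays. limma called 2156 genes (17 percent) at an adjusted p under 0.05: 1236 (9.74 percent) were higher in set 1 and 920 (7.25 percent) in set 2, and 193 differed by at least 1 on the log2 scale. In the 6 agonist arrays alone it called 8.68 percent, 727 genes (5.73 percent) higher in set 1 and 375 (2.95 percent) in set 2, and leaving out any single array gave 680 to 767 and 373 to 561. The DMSO arrays took no part in that fit, though their values entered the filter on mean level over all 8 arrays. They lay on the same side for 703 of those 727 genes (96.7 percent) and for 356 of those 375 (94.9 percent). Of all tested genes, 47.3 percent were higher in the set 1 DMSO array.

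**Figure D3:**
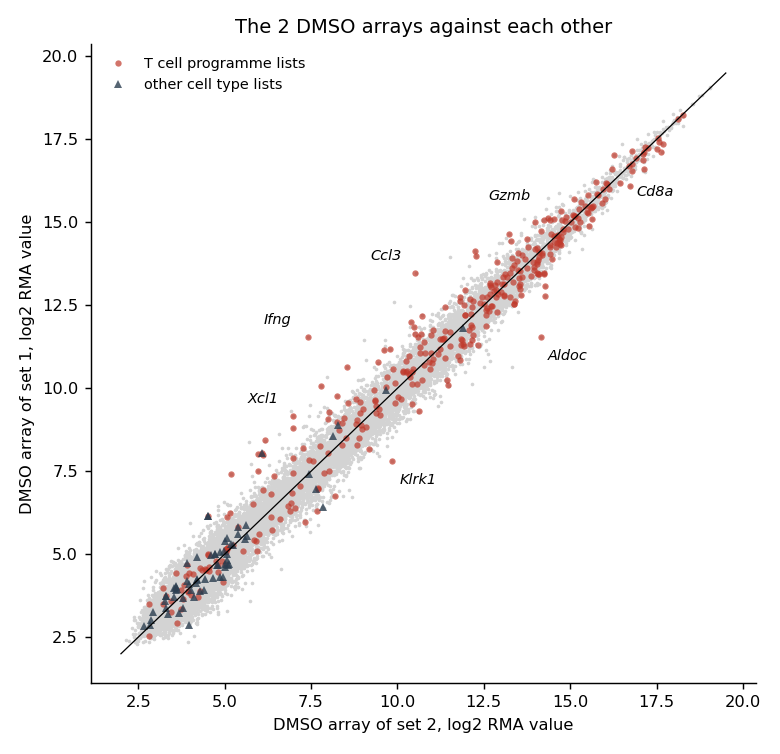
Log2 RMA value of 21160 genes in the DMSO array of set 2 (horizontal axis) and of set 1 (vertical axis), with programme genes in red, markers of other cells as dark triangles, all others in grey and the line of equality in black. Ifng, Ccl3 and Xcl1 lie above the line and Aldoc and Klrk1 below it, while Cd8a lies on it.

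Most tested cytokine and chemokine genes were higher in set 1, as were several genes of recent receptor signalling. Ifng read 11.54, 10.85, 12.12 and 12.80 in the set 1 arrays (DMSO, then the PPARα, PPARβ and PPARγ agonists) and 7.42, 8.18, 8.71 and 8.08 in the set 2 arrays, so that the sets did not overlap. This was a difference of 3.73 on the log2 scale (13.3-fold, SE 0.30, limma adjusted p = 0.00123). Ccl3 differed by 2.62 (SE 0.208, limma adjusted p = 0.00123) and Xcl1 by 2.11 (SE 0.242, limma adjusted p = 0.00322). In the cytokine list, 8 of 13 tested genes were higher in set 1 and 0 in set 2, against 9.74 and 7.25 percent of all tested genes. The median difference of the list was 0.92, against -0.003 over all tested genes. The 6 agonist arrays alone gave the same 8 and 0.

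Several genes induced by receptor signals were higher in set 1, but not all. Batf was not called, with a difference of -0.06 (limma adjusted p = 0.822). Nor were Nr4a2 at 0.55, Cd44 at 0.35 and Ctla4 at -0.01 (limma adjusted p = 0.056, 0.0537 and 0.977). Egr1, an immediate early factor gene, had means of 12.50 in set 1 and 9.93 in set 2, and Nfkbid, a nuclear regulator of NF-kB, 13.69 and 11.23 (both limma adjusted p = 0.000342). Irf4 differed by 1.34, Nr4a3 by 1.58, Tnfrsf4 by 1.65, Tnfrsf9 by 1.36 and Cd69 by 1.06, with limma adjusted p-values of 0.0016, 0.00105, 0.000751, 0.000899 and 0.00252. The receptor list as a whole was split: of 16 costimulatory and activation receptor genes 6 were higher in set 1 and 4 in set 2 (5 and 1 in the agonist arrays alone). Among all tested genes 9.74 and 7.25 percent were.

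Granule, inhibitory and homing genes had calls in both directions. Gzmb was higher in set 1 by 0.72 (SE 0.117, limma adjusted p = 0.00853), in all 4 treatments, while Nkg7 and Rab27a were higher in set 2, with differences of -0.58 and -0.69 (limma adjusted p = 0.00956 and 0.00739). Of 14 tested granule and death ligand genes, 3 were higher in set 1 and 4 in set 2 (2 and 3 in the agonist arrays alone). Pdcd1 was higher in set 1 by 1.06 and Klrd1 in set 2, with a difference of -1.01 (limma adjusted p = 0.00203 and 0.00361), among 13 inhibitory receptor genes with 2 calls for set 1 and 4 for set 2 (2 and 3 in the agonist arrays alone). The chemokine receptor genes Ccr4 and Ccr6 were higher in set 1 by 2.06 and 1.86 (limma adjusted p = 0.000433 for each), and Cxcr3 and Cxcr4 were higher in set 2, with differences of -0.80 and -1.16 (limma adjusted p = 0.00514 and 0.00746). Of 17 tested homing genes, 4 were higher in set 1 and 5 in set 2 (4 and 3 in the agonist arrays alone). These 3 lists stand beside 9.74 percent of all tested genes for set 1 and 7.25 percent for set 2.

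Set 1 was also higher in growth and amino acid supply, where the share of all tested genes was 9.74 percent for set 1 and 7.25 percent for set 2. Of 21 tested genes of the MYC and ribosome list, 14 were higher in set 1 and 0 in set 2, with a median difference of 0.64, and in the 6 agonist arrays alone 11 and 0 were. Myc itself differed by 0.83, the RNA polymerase I subunit gene Polr1b by 1.29 and Odc1, the first enzyme gene of polyamine synthesis, by 1.18 (limma adjusted p = 0.00294, 0.00193 and 0.00195). Of 19 amino acid and one-carbon genes, 11 were higher in set 1 and 0 in set 2 (7 and 0 in the agonist arrays alone), led by Shmt1 at 1.61 (limma adjusted p = 0.000989). The lipid list was split, with 4 of 17 genes higher in each set, also in the agonist arrays alone. Fasn, the fatty acid synthase gene, was higher in set 1 by 1.17 and Acadl, a gene of fatty acid oxidation, was higher in set 2, with a difference of -0.65 (limma adjusted p = 0.00123 and 0.00688).

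Set 2 was higher in glycolysis and in several receptors, beside 7.25 percent of all tested genes higher in set 2 and 9.74 percent in set 1. Of 22 glycolysis genes, 11 were higher in set 2 and 0 in set 1, with a median of -0.39 (6 and 0 in the agonist arrays alone). Aldoc, an aldolase gene, read 11.54 and 14.15 in the DMSO arrays and differed by -2.19 (SE 0.178, limma adjusted p = 0.00123), and the glucose transporter gene Slc2a3 read 12.77 and 14.27 and differed by -1.20 (SE 0.131, limma adjusted p = 0.00294). Klrk1, which encodes the activating receptor NKG2D, read 7.81 and 9.85 and differed by -1.95 (SE 0.0922, limma adjusted p = 0.00037). The metallothionein genes Mt1 and Mt2, which bind zinc, differed by -2.10 and -1.54 (limma adjusted p = 0.000899 and 0.000751). Of 24 cytokine receptor genes 10 were higher in set 2 and 2 in set 1, a split of 5 and 1 in the agonist arrays alone, with Ifngr1, the interferon gamma receptor gene, at -1.0 and Il12rb2 at -0.79 (limma adjusted p = 0.00329 and 0.00373).

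Interferon response genes divided. The GTPase genes Igtp, Gbp3 and Iigp1 were higher in set 2, with differences of -0.87, -1.11 and -1.02 (limma adjusted p = 0.00294, 0.00239 and 0.00993), although Ifng was the lower there. Cxcl10, a chemokine gene, was higher in set 1 by 0.91 (limma adjusted p = 0.00518). Ifit3 and Mx1 did not pass (limma adjusted p = 0.0833 and 0.0973). Their set differences were both 2.27 in DMSO, 2.52 and 2.59 under PPARβ agonist, 0.16 and 0.48 under PPARα agonist, and 0.15 and -0.25 under PPARγ agonist. In all, 1 of 27 tested genes of this list was higher in set 1 and 6 in set 2, with the same counts in the agonist arrays alone. Over all tested genes the shares were 9.74 and 7.25 percent.

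**Figure D4:**
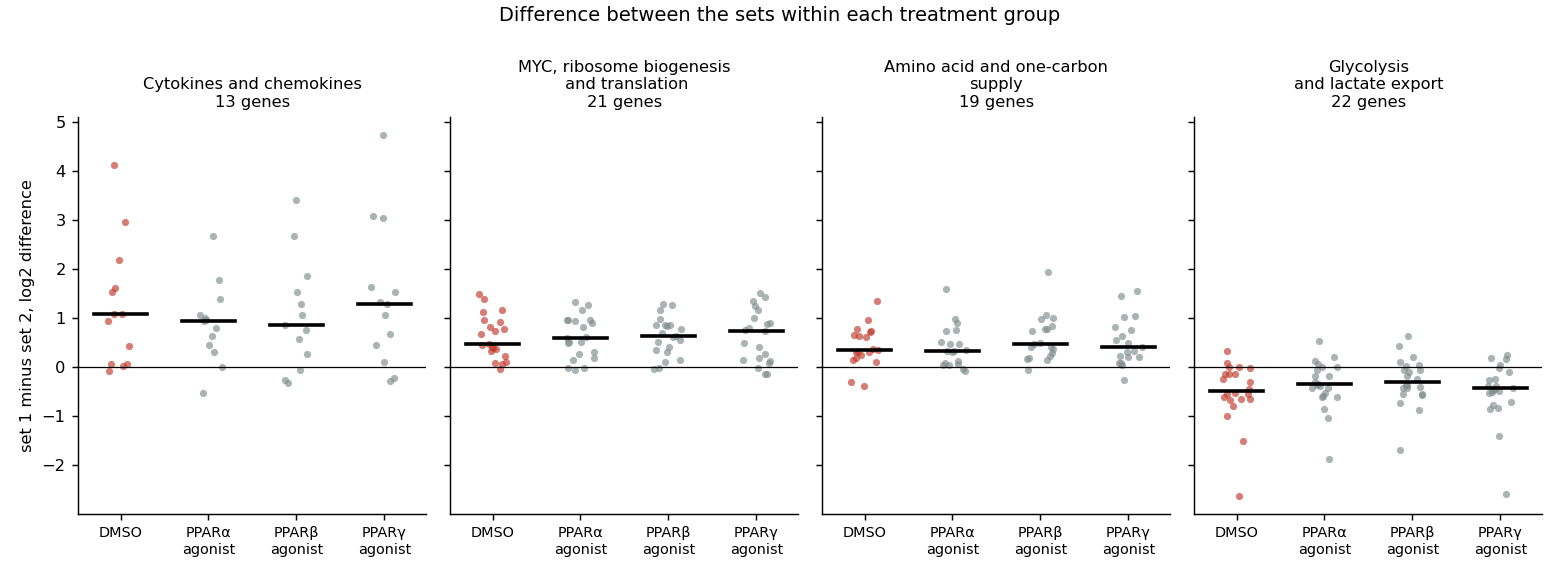
Set 1 minus set 2 in log2 units (vertical axis) within each treatment group, 1 point per tested gene, for 4 lists; black bars are medians and DMSO is in red. The cytokine, MYC and ribosome, and amino acid lists have medians above 0 in all 4 groups and the glycolysis list has medians below 0 in all 4.

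Of 18 T cell receptor genes 1 was called, Lcp2, an adaptor gene, higher in set 1 by 0.43 (limma adjusted p = 0.028), and leaving out either DMSO array left 0 calls in that list. Cell cycle genes had 1 call higher in set 1 and 4 in set 2 of 31 tested, 0 and 2 in the agonist arrays alone, with a median difference of -0.06. That share was close to the 17 percent of all tested genes. Of 20 tested transcription factor genes 2 were higher in set 1 and 1 in set 2 (1 and 0 in the agonist arrays alone).

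Markers of other cells had few calls outside the CD4 T cell list. Of 4 tested B cell genes 0 were higher in set 1 and 1 in set 2, and of 5 gamma delta T cell genes 1 and 0 were. The macrophage, dendritic cell, neutrophil and mast cell, erythroid, and stromal and epithelial lists had 0 calls. In the CD4 T cell list, 3 of 5 tested genes were higher in set 1, Cd4 and Ccr6 among them, and 1 in set 2. Among all tested genes the shares were 9.74 and 7.25 percent. Cd4 differed by 0.82 (limma adjusted p = 0.0162), or by 0.84 without either PPARγ agonist array (limma adjusted p = 0.0547). Il4 and Il17a of that list were near background at means of 3.52 and 4.74. The 7 genes of that list with a cluster of their own were summed, as log2 of summed linear values. Their sum ranged from 9.66 to 10.05 in set 1 and from 9.22 to 9.44 in set 2. It holds Cd4 and Ccr6, called above, so it adds no separate support. It also leaves out the shared Foxp3 cluster, which read 8.26 and 8.27 in the DMSO arrays of set 1 and set 2. The same sum for the T cell receptor list ranged from 19.65 to 19.74 and from 19.72 to 19.81. H2-Ab1 was higher in set 2 (a difference of -1.36, limma adjusted p = 0.00195), while the B cell sum ranged from 10.07 to 10.25 and from 9.81 to 10.34 and the natural killer cell sum from 5.98 to 6.45 and from 6.32 to 6.56. The part of other cells in the set difference was not tested.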

How the data were processed

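RNA of 8 samples, 1 per array, was measured on Clariom S Mouse arrays. Per the labels, biotin-labelled DNA was made from 100 ng of total RNA. The authors deposited log2 values made by RMA in Expression Console, per the labels (the version is not stated). The labels name an exon-level analysis for 7 samples and a gene-level one for 1, though all columns hold the same 22206 clusters, 22197 with 10 probes. The deposited linear intensity columns matched the log2 columns to 1.5e-06 and were not used further. Array medians lay between 5.64 and 5.72. No source used here gave the scaling behind maxima near 19.09, so fold changes assume plain log2 units. The number of arrays limits the precision.

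Clusters that name 1 gene (21371 of 22206; 832 name several and 3 none) were named through their entrez IDs in a RefSeq table of GRCm38.p6 (20395 matched, 899 symbols updated). For 132 genes with several clusters, the one with the highest mean was used. Coordinates are those of annotation na36 on mm10, per the file headers. Of 440 listed genes, 421 had a cluster of their own and 19 shared one. The set contrast used limma 3.58.1 in R 4.3.3 (lmFit and eBayes with group and set as terms; 3 residual and 4.26 prior degrees of freedom) on genes at or above the 40th percentile of mean level, and was tested on simulated data. Adjusted p-values are limma's. Since no label ties the arrays to separate mice or cultures, p-values reflect only spread among arrays, which may be technical. Tables and plots were made with Python 3.11.15, pandas 2.3.3, numpy 2.4.6 and matplotlib 3.10.9.

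The members, lists and motifs were chosen with earlier results of these data known. Named are Cd8a, Gzmb, the 10 highest genes, core genes and the 3 highest and 2 lowest of each list, up to 8 genes per direction with the largest set difference of the same sign in all 4 treatments, and up to 4 such members per list. Other genes were named after their values were seen. Alternatives were other background and class limits, other filters, cluster rules, variance settings and samples. Some listed genes are counted but not reported by name here.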

Additional observations from a re-analysis of the deposited data

How the results depend on the processing

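With the background limit at the 99th percentile of sensory receptor genes, 8 markers of other cells were middle, and with a limit of 7.44 from 92 keratin-associated and defensin genes 4 were, while 75 programme genes fell near background. With the top 25 percent as high, 239 programme genes were high and 81 middle, and 1 marker of another cell type was high. The 90th percentile, each DMSO array alone, the mean of clusters and the value matrix left these counts within 1.5 times. For the set difference, the 6 agonist arrays alone gave 727 genes higher in set 1 and 375 in set 2, and no filter on low values gave 756 and 472 (21160 genes tested). An intensity trend with robust variances gave 1766 higher in set 1 and 1472 in set 2. Leaving out each array in turn gave 680 to 767 and 373 to 561; its partner in the treatment then adds nothing to the contrast, so these are fits of 3 pairs. Without the treatment group term 2486 genes were called, 2003 of them shared with the 2156. The replicate number is the set under comparison, so it could not also serve as a block. With treatment group as a term, the sets were compared as pairs of arrays within the 4 treatments. Of 141 called genes that are listed or lead a direction, 0 reversed under 16 alternatives, 93 were called whichever array was left out and 98 under all the others. These genes were chosen as called on the same arrays that the alternatives reuse, so the lack of reversals is not separate support. The cause of the set difference was not tested.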

Other observations

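Gene families outside the lists, chosen with the values known, showed which house-keeping systems gave high array signal in DMSO cells. Of 68 cytosolic ribosomal protein genes 61 were high, with a median of 16.42, and the 2 near background included Rpl3l, a muscle form, at 3.11. The 6 protein genes of the mitochondrial genome that had a cluster of their own were all high. Genes of protein folding and turnover were also high for the most part, with 6 of 7 subunits of the CCT chaperonin and 26 of 38 proteasome subunits; Psmb8, an immunoproteasome subunit gene, had a mean of 14.71, and Psma8, a testis form, was near background at 3.76. Among RNA-binding proteins 16 of 19 hnRNP genes and 7 of 11 SR splicing factor genes were high. Of 76 mitochondrial ribosomal protein genes 7 were high and 69 middle. Several families had more limma calls for set 1: 19 of 50 translation initiation factor genes were higher there and 2 in set 2, 9 of 17 cytosolic aminoacyl tRNA synthetase genes and 0, and 18 of 76 mitochondrial ribosomal protein genes and 2, against 9.74 and 7.25 percent of all tested genes.

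Some large families with tissue-restricted members were mostly near background. Of 82 potassium channel genes 68 were near background and 1 was high, Kcnn4 at 13.64, the calcium-activated channel of activated T cells, with Kcna3, the voltage-gated channel of T cells, middle at 11.39. Of 99 cytochrome P450 genes 85 were near background and 1 was high, Cyp51 at 13.53, an enzyme of cholesterol synthesis. Of 68 orphan G protein-coupled receptor genes 41 were near background and 4 were high, led by Gpr18 at 13.55, Gpr171 at 12.98 and Gpr65 at 12.93. Solute carrier genes were close to all genes in this respect, with 169 of 359 near background, 162 middle and 28 high, led by the mitochondrial ADP/ATP carrier gene Slc25a5 at 17.31. Of 47 keratin genes 0 were high and 40 were near background.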
